A study of Arabidopsis thaliana with 9 samples.

Results

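Mature miRNAs were compared between leaves of chr2 and wild-type (WT) Arabidopsis thaliana plants, taking every miRNA entry that had at least 1 count in these libraries. Of the 427 entries counted in each library, 46 had 0 counts in all 6 libraries, and the other 381 gave 361 distinct count profiles after identical profiles were kept only 1 time each. These 361 profiles belonged to 185 families and 292 hairpin loci. The libraries came from leaves of plants aged 3 weeks, with 3 libraries of WT and 3 of chr2, and 3 further libraries of the mutant se-2 entered the fit. The chr2 line carries a mutation in CHR2, the gene also called BRM, and se-2 carries a mutation in SERRATE (SE). The allele behind the chr2 label, the accession of the WT plants and whether each library came from separate plants were not stated, so p-values measure only the spread between these libraries. Counts of miRNAs hold no transcripts of leaf markers or of the mutated genes, so neither the tissue nor the genotype could be checked from them.

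Plant miRNAs are cut from hairpins in primary transcripts by the nuclease DCL1, which works with SE and the double-stranded RNA-binding protein HYL1. Each hairpin yields a duplex of a 5p and a 3p arm, of which AGO1 usually keeps the guide, and the other arm is the passenger. CHR2 is the ATPase of a SWI/SNF complex, a machine that moves nucleosomes, and it is known in leaves for its part in transcription of developmental genes. The study's title places CHR2 at SE and at the primary transcripts themselves, and the comparison asks which miRNAs differ when CHR2 is mutated.

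The sequences on which the results turn are printed 5′ to 3′, with bases 2 to 8 (the seed) in capitals. They were read from the RefSeq annotation of TAIR10.1, the build of all coordinates given here. The miR156 and miR157 entries are shown because their hairpins moved in different directions although the guide sequences are nearly alike.
miR156a-5p: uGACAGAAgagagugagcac
miR156h: uGACAGAAgaaagagagcac
miR157d: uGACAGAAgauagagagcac
miR157a-5p: uUGACAGAagauagagagcac
miR156d-3p: gCUCACUCucuuuuugucauaac
miR156b-3p: uGCUCACCucucuuucugucagu
miR156c-3p: gCUCACUGcucuaucugucaga
miR157a-3p: gCUCUCUAgccuucugucauc
miR157c-3p: gCUCUCUAuacuucugucacc
The guide miR156a-5p is also the guide of the MIR156d hairpin, and miR157d is miR157a-5p without its first base, with 20 shared bases. The 3p arms differ between hairpins and therefore tell them apart. The MIR156d hairpin lies on the minus strand of chromosome 5 (chr5:3456632-3456749), in an intron of AT5G10946 on the same strand, and is printed with both mature arms in capitals.
MIR156d hairpin: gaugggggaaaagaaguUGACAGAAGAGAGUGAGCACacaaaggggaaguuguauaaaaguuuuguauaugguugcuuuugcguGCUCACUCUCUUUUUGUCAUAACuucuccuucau
The miRNAs of a short interval of chromosome 4 have different seeds and are shown because those of 6 of its 8 hairpins were lower in chr2, while miR857 and miR397b, which lie between them, were not called.
miR5026: aCUCAUAAgaucgugacacgu
miR850: uAAGAUCCggacuacaacaaag
miR863-5p: uUAUGUCUuguugaucucaau
miR863-3p: uUGAGAGCaacaagacauaau
miR857: uUUUGUAUguugaagguguau
miR397b: uCAUUGAGugcaucguugaug
miR5996: uGACAUCCagauagaagcuuug
miR841a-3p: aUUUCUAGugggucguauuca
miR3932b-5p: uUUGACGUgcucgaucugcuc
From another place on chromosome 4, miR841b-3p shares 19 bases with miR841a-3p but is shifted by 2 and so has another seed.
miR841b-3p: cAAUUUCUagugggucguauu
A further set holds the strongest changes elsewhere, with close relatives that were not called or that moved the other way.
miR845a: cGGCUCUGauaccaauugaug
miR829-3p-1: aGCUCUGAuaccaaaugauggaau
miR319a: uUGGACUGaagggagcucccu
miR319c: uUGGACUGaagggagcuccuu
miR159b-3p: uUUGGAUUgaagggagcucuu
miR393a-3p: aUCAUGCUaucucuuuggauu
miR393b-3p: aUCAUGCGaucucuuuggauu
miR408-3p: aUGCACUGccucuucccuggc
miR861-3p: gAUGGAUAugucuucaaggac
miR8175: gAUCCCCGgcaacggcgcca
miR8183: uUUAGUUGacggaauuguggc
miR822-5p: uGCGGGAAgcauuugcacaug
miR869-1: aUUGGUUCaauucugguguug
miR869-2: uCUGGUGUugagauaguugac
miR169m: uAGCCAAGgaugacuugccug
miR169a-3p: gGCAAGUUguccuuggcuac
miR169b-3p: gGCAAGUUguccuucggcuaca
miR164a: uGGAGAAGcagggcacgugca
miR845a and miR829-3p-1 share a run of 13 bases, miR319a and miR319c differ by C20U, and miR393a-3p and miR393b-3p differ by U8G, with positions counted from the 5′ end and the base of the first-named miRNA given first.

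In chr2 leaves a minority of miRNAs differed from WT, in both directions, and a few hairpins accounted for the strongest changes. Levels are CPM values (counts per library size, made comparable by TMM scaling), and changes are log2 differences of chr2 minus WT with their standard error (SE). An entry was called at an adjusted p below 0.05 in edgeR's quasi-likelihood test with Benjamini-Hochberg adjustment. After low entries were removed, 270 entries were tested, and 28 of 270 (10.4%) were higher and 53 of 270 (19.6%) lower in chr2, and 189 were not called. Of the 361 profiles 268 were tested, and no untested profile had more than 67 counts over the 6 libraries. Over all tested entries the log2 change had a median of -0.15. Among the entries called higher, 14 changed over 2-fold, and among those called lower, 32 did. Some entries share a mature sequence, and the 28 entries called higher hold 23 sequences of 15 families, and the 53 called lower hold 43 sequences of 32 families. Without overlap between the 3 WT and the 3 chr2 libraries, 40 of 361 profiles (11.1%) were higher and 95 (26.3%) lower. When counts were summed by family number, 11 of 126 families (8.73%) were higher and 11 (8.73%) lower.

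The balance of higher and lower calls depended on how libraries were scaled, while no called entry changed sign. The summed counts of distinct profiles were 1367286 ± 155892 in WT (SD, n = 3, range 1233261 to 1538367) and 755878 ± 137476 in chr2 (SD, n = 3, range 599268 to 856644). WT sums were thus 1.81 times those of chr2 and did not overlap them (exact two-sided permutation p = 0.1, the smallest that 3 against 3 libraries allow), but only miRNA counts were given, so sequencing depth and miRNA content cannot be told apart. Of the TMM calls, 34.6% were increases. With DESeq2 size factors, which moved the median log2 change by 0.19, there were 46 higher and 37 lower entries, and total counts (a move of 0.09) gave 28 and 35. Scaling to the late annotated and questioned early entries gave 12 higher and 108 lower (a move of -0.37), and the same scaling without the abundant entry miR8175 gave 48 and 27 (a move of 0.32), so increases made up 10% to 64% of calls. Under all 5 scalings, 12 entries were called higher and 27 lower. All 12, and 24 of the 27, were also called when any single library of WT or chr2 was left out, the exceptions being miR829-3p-1, miR3932b-3p and miR869-2. Leaving out WT replicate 1, chr2 replicate 1 or chr2 replicate 3 reduced the lower calls to 30, 33 and 29. Entries with small decreases are therefore named here with alternatives that ended their call, or as not called under all 5 scalings.

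**Figure D1:**
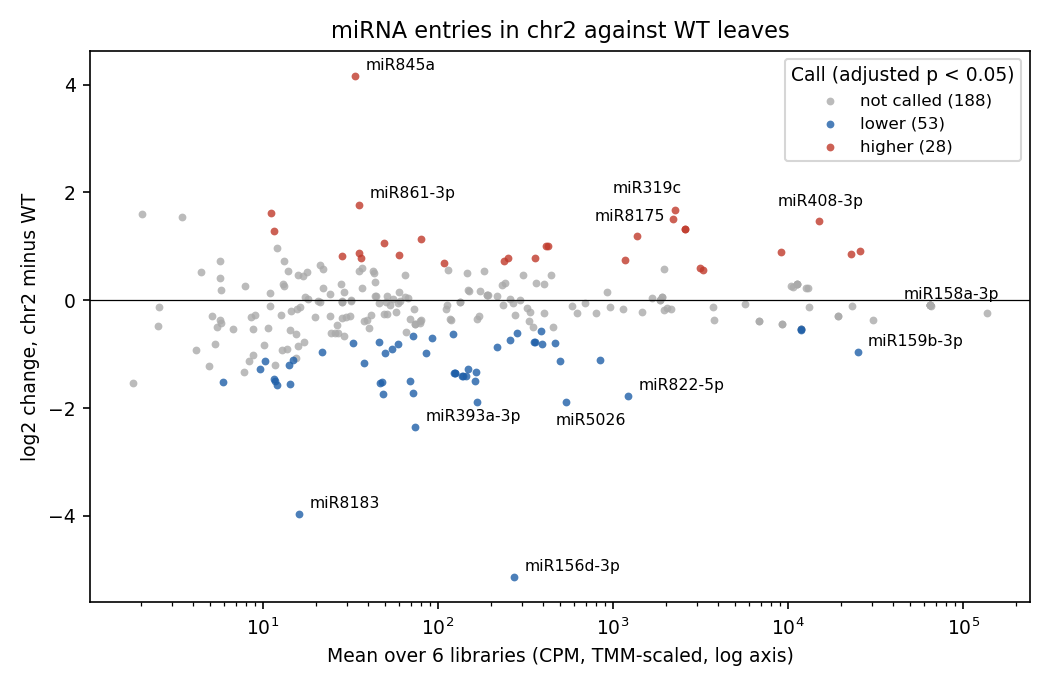
Mean level of each tested entry over the 6 libraries (CPM, log axis) against its log2 change in chr2 relative to WT, with entries called higher in red, lower in blue and not called in grey (miR2939, with 0 counts in these libraries, is not drawn). The 28 higher entries and 53 lower entries include both rare and abundant ones, with miR845a (4.16) and miR156d-3p (-5.14) at the extremes of change. Of distinct sequences, 2.86% were higher in the least abundant tertile and 18.6% in the most abundant.

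The MIR156d hairpin lost nearly all of its specific products in chr2. miR156 and miR157 repress SPL transcription factors and thereby hold plants in the juvenile phase. miR156d-3p, the passenger arm that only this hairpin gives, had 708, 610 and 738 counts in the WT libraries and 13, 13 and 8 in the chr2 libraries. In CPM these were 532, 522 and 529 in WT against 17.8, 12.7 and 14.4 in chr2, so the groups lay far apart with little spread in either. The decrease was 35.2-fold (log2 -5.14, SE 0.26, edgeR adjusted p = 8.5e-16), the largest of all tested entries. For this hairpin, for the interval of chromosome 4 and for miR845a, all described below, whether the chr2 and WT plants differ elsewhere in their genome was not tested, so the differences are between these plant lines.

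The guide strand of MIR156d has a sequence that 6 hairpins share. Its own entry, miR156d-5p, was at 13650 ± 781.7 CPM in WT and 12550 ± 2409 CPM in chr2 (SD, n = 3 each, log2 -0.12, not called). The entry differed from its copies in its counts. Beyond the counts of the copy miR156e, miR156d-5p had 4576, 4462 and 4769 further counts in WT but 64, 96 and 71 in chr2. As a percentage of the counts of miR156e this excess was 35.2% ± 0.654 in WT and 0.826% ± 0.0127 in chr2 (SD, n = 3 each, no overlap, exact two-sided permutation p = 0.1, the smallest possible), and in CPM it was 34.5-fold lower. The rule by which reads were assigned to copies is not given in the sources used here, so which reads make up this excess is unknown. The excess and miR156d-3p thus stood at about the same ratio between the genotypes, but whether the excess comes from MIR156d was not tested.

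Of the other miR156 hairpins, MIR156h was also lower, MIR156c was higher and MIR156a and MIR156b were not called. miR156a-3p (20.5 against 20.5 CPM, log2 -0.01) and miR156b-3p (322 against 402 CPM, log2 0.32) were not called, and miR156c-3p was higher (179 ± 26.0 against 296 ± 31.3 CPM, SD, n = 3 each, log2 0.72, SE 0.21, edgeR adjusted p = 0.0092). That increase was not called with reference scaling or without WT replicate 2. miR156h, whose guide has a sequence of its own, was lower at 22.0, 27.4 and 19.7 CPM in chr2 against 40.5, 53.0 and 64.5 CPM in WT (log2 -1.16, edgeR adjusted p = 0.001), a call that held under all 5 scalings. The shared guide itself, as miR156a-5p, was at 10120 ± 571.5 CPM in WT and 12470 ± 2393 CPM in chr2 (SD, n = 3 each, log2 0.30, not called).

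All 6 miR157 profiles were higher in chr2, beside 10.4% over all tested entries. The family sum rose from 48740, 50770 and 45880 CPM in WT to 102500, 103600 and 117400 CPM in chr2, with every chr2 library above every WT library (2.23-fold, log2 1.15, SE 0.18, edgeR adjusted p = 7.8e-05 over 126 families). The passenger miR157a-3p, shared with MIR157b, moved most at log2 1.33, with 1541, 1280 and 1554 CPM in WT against 4371, 3023 and 3587 CPM in chr2. miR157c-3p, found in MIR157c alone, rose from 6420 ± 710.1 to 11900 ± 1208 CPM (SD, n = 3 each, log2 0.89), and the guides miR157a-5p, miR157c-5p and miR157d rose by 0.86, 0.91 and 0.75 on the log2 scale. Of these, miR157c-3p and miR157d were not called with reference scaling (adjusted p = 0.052 and 0.17 in edgeR). Entries of both arms of miR157 hairpins were thus higher.

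**Figure D2:**
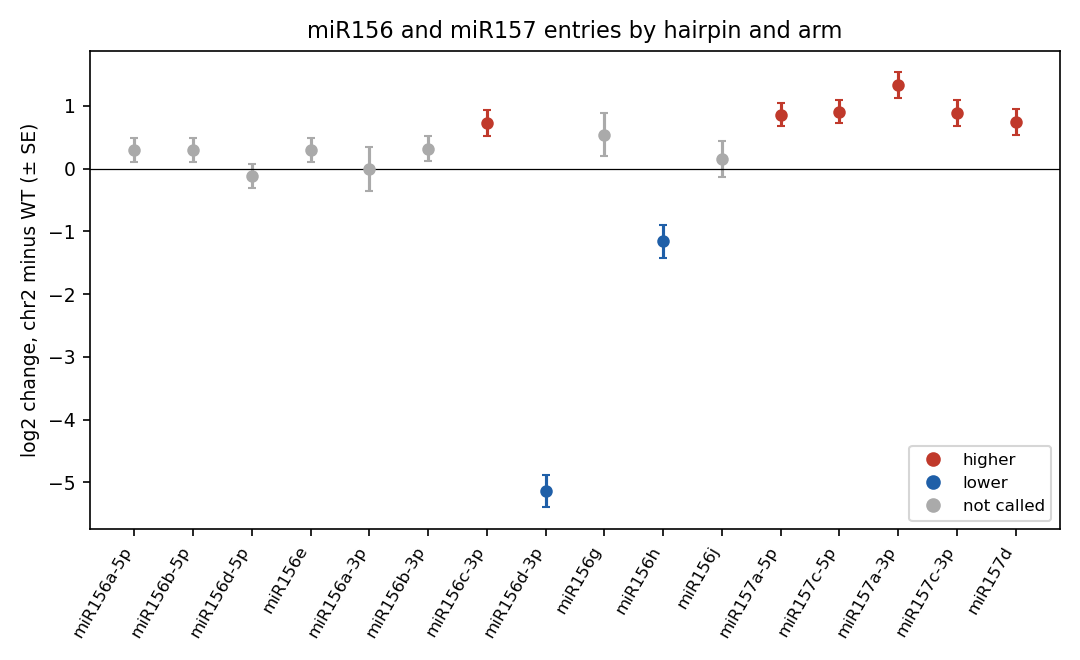
log2 change in chr2 relative to WT (points, with standard errors as bars) for the tested entries of miR156 and miR157, ordered by family and arm (miR157b-3p, of the same sequence as miR157a-3p, is not drawn). miR156d-3p lies at -5.14 and miR156h at -1.16, the miR156 entries without a call lie between -0.12 and 0.54, and every miR157 entry lies between 0.75 and 1.33.

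A group of neighbouring hairpins on chromosome 4 was lower in chr2. The interval was picked out after its values had been seen, and the tests given are those of each entry over the whole table. It spans 46.2 kb (chr4:7844496-7890719) and holds 8 annotated miRNA hairpins with 11 entries, all tested. The 3 hairpins at its left end, MIR5026, MIR850 and MIR863, lie within 2.4 kb on the plus strand, 31.3 kb from the next. miR5026 had 1091, 1070 and 1135 counts in WT and 142, 188 and 176 in chr2, which in CPM is a 3.67-fold decrease (849 ± 57.2 to 232 ± 73.2 CPM, SD, n = 3 each, log2 -1.89, SE 0.23, edgeR adjusted p = 3.8e-07). miR850 had 115, 97 and 78 counts in WT and 25, 17 and 9 in chr2 (log2 -1.74, SE 0.32, edgeR adjusted p = 8.1e-05). For miR863, both arms fell together. miR863-3p was at 267, 264 and 258 CPM in WT and at 70.0, 72.4 and 70.0 CPM in chr2 (log2 -1.89), and miR863-5p fell by 1.73 on the log2 scale.

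At the right end of the interval, MIR5996, MIR841a and MIR3932b lie on the minus strand and were lower as well. miR5996, in a UTR exon of AT4G13560, was at 68.3, 77.8 and 65.9 CPM in WT and 28.8, 24.5 and 19.7 CPM in chr2 (log2 -1.51, SE 0.25, edgeR adjusted p = 2.9e-05). miR841a-3p was at 235 ± 3.71 CPM in WT and 92.6 ± 15.6 CPM in chr2 (SD, n = 3 each, log2 -1.33), and miR841a-5p fell by 0.97. miR3932b-5p, in a UTR exon of AT4G13575, fell by 1.49 and its 3p arm by 1.56 on the log2 scale, and the call of the 3p arm was lost without chr2 replicate 1 (adjusted p = 0.051 in edgeR) and without chr2 replicate 2 (0.081). The mature sequence of this 3p arm is shared with another entry, so its counts may not come from this hairpin alone. The decrease of miR841a-5p was not called without chr2 replicate 3 (log2 -0.67) or with reference scaling without miR8175 (log2 -0.62).

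Between these ends lie the low-copper miRNAs miR857 and miR397b, which target laccases. miR857 was at 44.3, 52.2 and 67.4 CPM in WT and 70.0, 82.2 and 73.6 CPM in chr2 (log2 0.46, edgeR adjusted p = 0.16), and miR397b had a log2 change of 0.32 (edgeR adjusted p = 0.34). Neither was called here, and miR857 was called higher under DESeq2 size factors (log2 0.66). On the rest of chromosome 4, 3 of 26 tested entries were lower and 3 higher, and the median was 0.15 on the log2 scale. One of the lower entries, miR841b-3p (log2 -1.28), has the sequence that is shifted against miR841a-3p, and whether the same reads were counted for both was not tested. Its partner arm, miR841b-5p, had 13, 22 and 8 counts in WT and 4, 5 and 1 in chr2 and was not called.

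**Figure D3:**
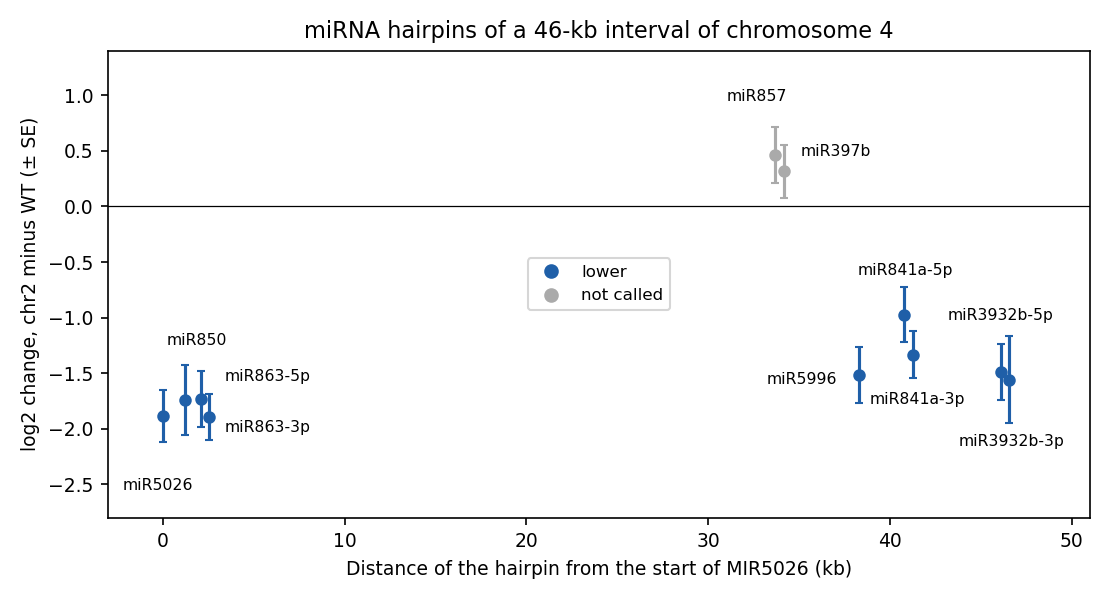
log2 change in chr2 relative to WT (points, with standard errors as bars) of the 11 entries in the interval of chromosome 4, against the distance of their hairpin from the start of MIR5026 in kb (3p arms are drawn slightly to the right). The 9 entries of MIR5026, MIR850, MIR863, MIR5996, MIR841a and MIR3932b lie between -0.97 and -1.89, and miR857 and miR397b lie above 0.

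Elsewhere, no neighbouring hairpins without a shared sequence were both called. Of 41 pairs of neighbouring hairpins within 10 kb in which both were tested, 23 had both called, all in the same direction, but most of these were copies of miR169 with an identical sequence. Of the 19 pairs without a shared sequence, 11 lie in the interval just described, and these include all 6 pairs in which both members were lower. In the 8 pairs elsewhere, 1 had a single member called and 7 had none.

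Among decreases elsewhere was that of miR393a-3p, whose partner arm was not called here. miR393 represses the TIR1 and AFB auxin receptors and triggers secondary siRNAs from their transcripts. miR393a-3p had 113, 155 and 215 counts in WT and 28, 16 and 11 in chr2, or 124 ± 35.4 against 24.6 ± 12.1 CPM (SD, n = 3 each, 5.03-fold lower, log2 -2.35, SE 0.31, edgeR adjusted p = 1.1e-06). The guide miR393a-5p, which MIR393b gives as well, was at 370 ± 33.3 CPM in WT and 509 ± 129.9 CPM in chr2 (log2 0.46, not called here, and called higher under DESeq2 size factors). miR393b-3p, which differs from miR393a-3p by U8G, was at 866 and 739 CPM (log2 -0.23, not called). The 3p arm of MIR393a was thus called and that of MIR393b was not, and the difference between them was not tested. miR8183, a late entry on chromosome 3, had 34, 47 and 34 counts in WT and 1, 0 and 3 in chr2 (log2 -3.96, SE 0.56, edgeR adjusted p = 3.9e-06).

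Young miRNAs cut by DCL4 in place of DCL1 were lower. miR822-5p, which matches genes of DC1-domain proteins, was at 1877, 1913 and 1862 CPM in WT and 545, 512 and 601 CPM in chr2, with no overlap (3.41-fold lower, log2 -1.77, SE 0.20, edgeR adjusted p = 4.2e-08). Its partner miR822-3p fell by 1.53 on the log2 scale. miR869-1 and miR869-2, which overlap on their hairpin by 10 bases, fell by 1.46 and 1.50 from 17.0 and 17.5 CPM in WT. Both calls were lost without chr2 replicate 2 or chr2 replicate 3 and with the DESeq2 test, and that of miR869-1 also with reference scaling without miR8175. The fifth tested entry of this list, miR839-5p, stood at -0.37 on the log2 scale without a call, so 4 of 5 were lower. The median of the list was -1.50 on the log2 scale, beside -0.15 over all entries, of which 19.6% were lower.

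The miR169 family, which represses NF-YA transcription factors, had 12 lower and 1 higher among 18 entries, beside 19.6% lower and 10.4% higher over all tested entries. Its summed level was 3741 ± 1102 CPM in WT and 2450 ± 510 CPM in chr2 (SD, n = 3 each) and was not called (log2 -0.61, SE 0.24, edgeR adjusted p = 0.092 over families). The sequence shared by miR169h to miR169n made up 7 of its lower entries, with 427, 254 and 254 counts for miR169m in WT and 37, 108 and 55 in chr2 (log2 -1.49, SE 0.27, edgeR adjusted p = 6.8e-05), and the other copies between -1.34 and -1.40. MIR169i to MIR169n lie beside each other on chromosome 3. The 3p arms miR169f-3p (684 to 314 CPM, log2 -1.12), miR169g-3p (280 to 153 CPM, log2 -0.87) and miR169a-3p (593 to 340 CPM, log2 -0.80) were lower too, as were miR169d and miR169e. In WT these 3p arms made up 97%, 94.2% and 73.4% of the counts of both arms. miR169d and miR169e are of 1 sequence, and its copies miR169f-5p (log2 -1.06) and miR169g-5p (log2 -1.20) were not called. The decreases of miR169a-3p, miR169d, miR169e and miR169g-3p were not called without WT replicate 1, which had the highest WT value of each, nor without chr2 replicate 1 or chr2 replicate 3, nor with total counts, reference scaling without miR8175, the DESeq2 test, a filter of at least 10 CPM in 3 libraries or the 6 WT and chr2 libraries alone. Those of miR169d and miR169e were also lost with DESeq2 size factors, and that of miR169d further without a filter, without chr2 replicate 2, with limma-voom and with the replicate number as a block. miR169b-3p went the other way. It was at 72.8, 39.4 and 38.0 CPM in WT and at 113, 102 and 117 CPM in chr2 (log2 1.13, SE 0.25, edgeR adjusted p = 0.00079), while sharing its seed with miR169a-3p.

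miR170 and miR171 repress the HAM transcription factors of meristems, and their entries were called in both directions. The guides miR171b-3p and miR171c-3p, of a single sequence, were higher (log2 0.88 and 0.79), as was miR171c-5p (180 to 191 CPM in the WT libraries and 247 CPM or more in the chr2 libraries, log2 0.77). The 5p arms miR170-5p and miR171a-5p, also of a single sequence, were lower (log2 -0.77 and -0.78). Their partner arms miR171a-3p (533 and 378 CPM, log2 -0.50) and miR170-3p (59.9 and 61.4 CPM, log2 -0.02) were not called, and neither was miR171b-5p (log2 -0.16). Together the NF-Y and HAM regulators had 4 higher and 14 lower of 26 tested entries, beside 10.4% higher and 19.6% lower over all entries, and a median of -0.83 on the log2 scale, but their 26 entries hold only 14 distinct sequences, of which 3 were higher and 6 lower. The increases of miR171b-3p and miR171c-3p were not called without WT replicate 2, that of miR171c-3p also not without chr2 replicate 2, with limma-voom or with the replicate block, and reference scaling called none of these 3. The decreases of miR170-5p and miR171a-5p were not called without WT replicate 1 or chr2 replicate 2, nor with reference scaling without miR8175.

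miR159 represses GAMYB-like factors and miR319 represses TCP factors of leaf growth, and both are cut from the loop of the hairpin towards its base. Close relatives within each differed. miR159b-3p fell from 29870, 34550 and 34410 CPM in WT to 13320, 13950 and 23660 CPM in chr2 (log2 -0.96, SE 0.21, edgeR adjusted p = 0.00057), with the third chr2 library nearest to WT, and its partner miR159b-5p was at 70.6 and 38.7 CPM (log2 -0.90). The call of miR159b-5p was lost without WT replicate 1, chr2 replicate 1 or chr2 replicate 2, and with total counts, reference scaling without miR8175, the DESeq2 test or the 6 libraries alone. miR159a, 1 base apart from miR159b-3p by A21U, was at 23960 ± 1628 CPM in WT and 22190 ± 8717 CPM in chr2 (log2 -0.11, not called). miR319c rose from 1008, 1168 and 1079 CPM in WT to 2629, 2730 and 5017 CPM in chr2 (log2 1.67, SE 0.23, edgeR adjusted p = 1.9e-06), again with the third chr2 library apart. miR319a and miR319b, with the shared sequence at 9391 and 9791 CPM in WT, had log2 changes of 0.26 and 0.24 and were not called.

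Other decreases were smaller. miR396a-3p, the passenger of a miRNA that represses GRF growth regulators, fell from 1155 ± 126.5 to 538 ± 74.6 CPM (SD, n = 3 each, log2 -1.10, SE 0.19, edgeR adjusted p = 4.1e-05), while the guides miR396a-5p and miR396b-5p changed by -0.36 each on the log2 scale and were not called. miR829-3p-1, which shares 13 bases with miR845a, was at 18.2 ± 4.06 and 5.76 ± 3.91 CPM (log2 -1.58), a call lost without chr2 replicate 2 or chr2 replicate 3 and with the DESeq2 test, and it was not among the entries tested without WT replicate 1 or WT replicate 3. miR846-3p, miR773a and miR775 fell by 0.97, 0.80 and 0.74 on the log2 scale, each not called with reference scaling without miR8175. The call of miR775 was also lost with a single entry per mature sequence, without WT replicate 1 or 3 and without chr2 replicate 1 or 3, and that of miR773a without chr2 replicate 3. miR167a-5p, which represses auxin response factors, had a log2 change of -0.54, and this call was lost with DESeq2 size factors (-0.35), total counts, reference scaling without miR8175, the DESeq2 test, no filter, the 10 CPM filter or the 6 libraries alone, and without any of 5 single libraries, among them all 3 of WT.

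The largest increase was that of miR845a, which pairs with the primer-binding site of retrotransposons and is known from pollen. It had 6, 2 and 5 counts in WT and 53, 49 and 39 in chr2, or 3.27 ± 1.42 against 63.6 ± 13.6 CPM (SD, n = 3 each, 19.5-fold, log2 4.16, SE 0.34, edgeR adjusted p = 1.1e-10). miR845b, with which it shares 13 bases, had 0, 1 and 0 counts in WT and 0 in every chr2 library, and it was not tested. miR845a lies on chromosome 4 (chr4:12217457-12217477, minus strand, intergenic).

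miR408, which represses laccases and a plantacyanin when copper is short, rose in both arms. miR408-3p was at 5873, 8125 and 9974 CPM in WT and at 20580, 16810 and 29060 CPM in chr2 (2.77-fold, log2 1.47, SE 0.22, edgeR adjusted p = 9.0e-06). miR408-5p rose from 504, 752 and 1222 CPM to 2198, 1592 and 1909 CPM (log2 1.20), though it was not called with reference scaling (adjusted p = 0.052 in edgeR). Of the 11 low-copper entries, 2 were called higher, both of them miR408, and none lower, beside 10.4% higher and 19.6% lower over all entries, and their median was 0.32 on the log2 scale, beside -0.15. miR397a (log2 0.56), miR857 (0.46) and miR397b (0.32) were not called. miR398b-3p was at 7750 ± 1442 CPM in WT and 5938 ± 505.9 CPM in chr2 (log2 -0.38, not called).

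The miR164 family, which represses CUC transcription factors of leaf margins, was higher in 5 of 5 entries, beside 10.4% over all tested entries. Its summed level rose from 712 ± 59.1 to 1688 ± 438 CPM (SD, n = 3 each, 2.37-fold, log2 1.25, SE 0.21, edgeR adjusted p = 0.00018 over families). miR164b-3p, a passenger of MIR164b alone, was at 32.3, 31.7 and 30.1 CPM in WT and 70.0, 56.8 and 73.6 CPM in chr2 (log2 1.07). miR164a, which shares its sequence with miR164b-5p, rose by 1.01 on the log2 scale, and miR164c-5p and miR164c-3p rose by 0.84 and 0.82. Of the 5 entries miR164b-3p was called under every scaling, and the other 4 were not called with reference scaling.

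Among further increases, miR861-3p rose from 13.5, 18.0 and 16.5 CPM in WT to 63.1, 52.8 and 48.5 CPM in chr2 (log2 1.78, SE 0.27, edgeR adjusted p = 9.0e-06). The late entry miR8175 rose from 1250, 1118 and 1075 CPM to 3592, 2807 and 3434 CPM (log2 1.51). miR167c-3p rose from 5.24 ± 2.36 to 16.9 ± 4.42 CPM (log2 1.63). miR168a-5p and miR168b-5p, which share a sequence and repress AGO1, rose by 0.57 and 0.59 on the log2 scale, and miR391-5p by 0.79. The 2 miR168 entries were not called with reference scaling or without WT replicate 2, and miR391-5p was not called with reference scaling. miR405a, a transposon-related entry at 6.50 CPM in WT and 16.5 CPM in chr2, was called higher (log2 1.29) but not with reference scaling, nor without WT replicate 2 or chr2 replicate 1. Its copies miR405b and miR405d, of the same sequence, were not called. miR8180 was called higher (log2 0.69) but not with reference scaling, limma-voom or the replicate block, nor without WT replicate 2 or chr2 replicate 1, and its libraries overlapped.

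**Figure D4:**
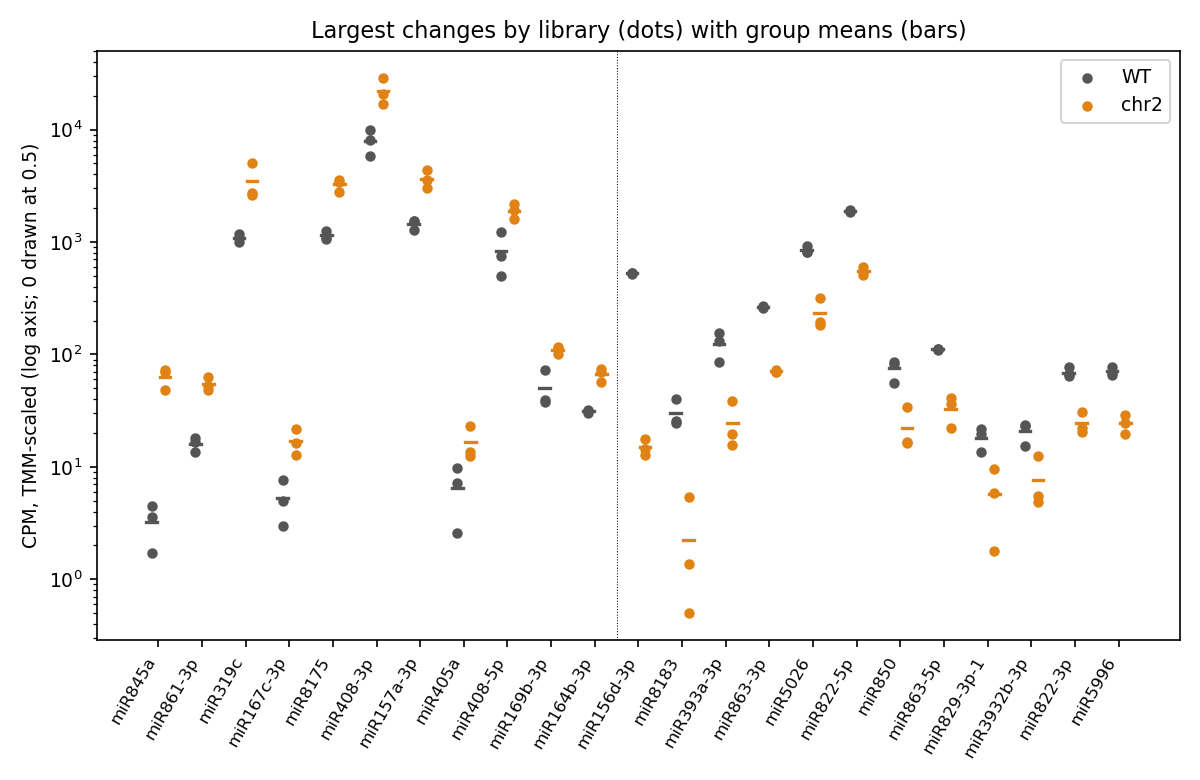
Level in each library (dots, CPM on a log axis, 0 drawn at 0.5) with group means (bars) for the entries with the largest increases (left of the dotted line) and decreases (right of it), WT in grey and chr2 in orange. The entry miR157b-3p, of the same sequence as miR157a-3p, is not drawn. WT and chr2 dots do not overlap in any of the entries drawn; miR8183 has a chr2 library at 0.

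The arms of a hairpin were never called in opposite directions. Of 57 hairpins with both arms tested, both arms were higher in 6 and both lower in 5, 22 had a single arm called and 24 none. The ratio of arms within a library, which needs no scaling between libraries, was tested for 65 hairpins with at least 30 counts of each arm. It differed in 6 of 65 (9.23%), with 3 shifted towards the 3p and 3 towards the 5p arm, and the median size of its log2 change was 0.28.

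The 2 strongest shifts were those of MIR156d and MIR393a. The 3p share of MIR156d, against a 5p entry whose sequence 6 hairpins share, was 3.81%, 3.47% and 3.90% in WT and 0.164%, 0.111% and 0.0937% in chr2 (log2 of the ratio -4.98, SE 0.31). The 3p share of MIR393a was 17.6%, 28.5% and 28.8% in WT and 5.54%, 3.23% and 4.66% in chr2 (log2 -2.81, SE 0.37). These 2 were called under every alternative in which they were tested. Both have a shared 5p arm, however, so the ratio is not that of the hairpin alone.

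The other 4 shifts were smaller. miR5663 moved towards its 3p arm (33.4% ± 4.99 to 53.4% ± 17.1, SD, n = 3 each, log2 1.29), a call lost without chr2 replicate 1 (0.75) and with limma on the log2 ratio. miR171b moved towards the 3p guide (17.7% ± 2.78 to 30.4% ± 4.51, log2 1.04), a call lost without WT replicate 2, WT replicate 3 or chr2 replicate 2. MIR171c gives the same 3p sequence, so this ratio is not that of the MIR171b hairpin alone. miR396a moved towards the 5p guide (3p share 21.5% ± 2.90 to 14.1% ± 0.907, log2 -0.73), a call lost without WT replicate 2 or 3 and with limma. miR165a moved from 96.3% ± 0.191 to 97.6% ± 0.853 of 3p (log2 0.72), and this call was lost without any of 4 single libraries, among them all 3 of WT, with limma and with the replicate block (adjusted p = 0.088 in edgeR). Its 3p sequence is shared with miR165b, so this ratio is likewise not that of a single hairpin.

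**Figure D5:**
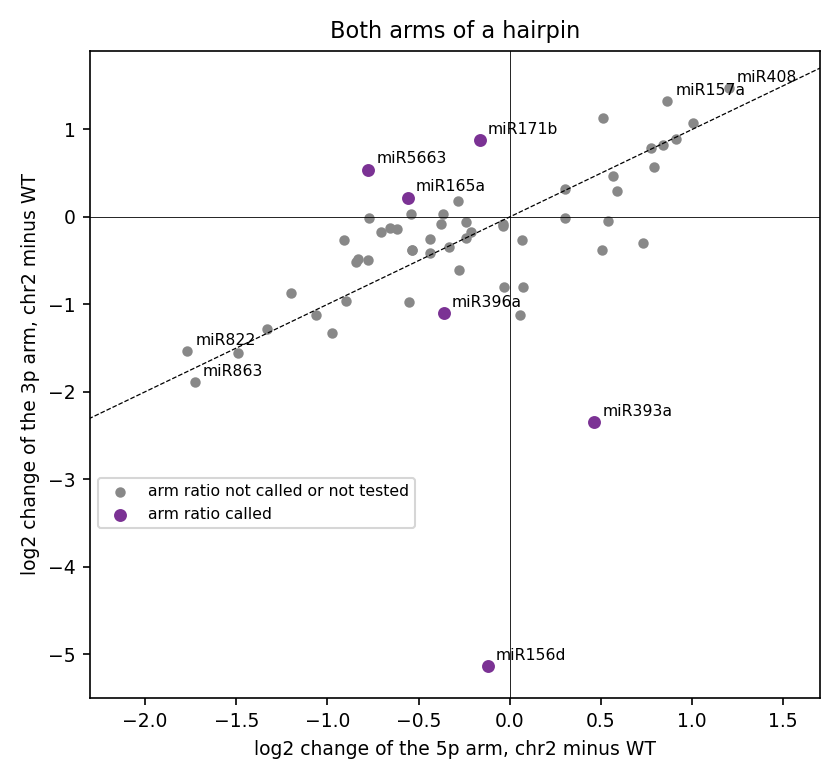
log2 change of the 5p arm against that of the 3p arm for hairpins with both arms tested, with hairpins of a called arm ratio in purple and a dashed line where both arms change alike. miR408 and miR157a (both arms up) and miR822 and miR863 (both arms down) lie near the line, and MIR156d (3p at -5.14) and MIR393a (3p at -2.35) lie far below it.

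Lists of families are described by their calls beside the background. The conserved families had 22 higher and 25 lower among 127 tested entries, and their median was -0.04 on the log2 scale, beside 10.4% and 19.6% and a median of -0.15 over all entries. In the phase-change list 7 of 22 entries were higher and 2 lower (median 0.30); all of the increases were of miR156c or miR157, and miR172a, a repressor of AP2-like factors, was at 1852 and 1849 CPM. Among leaf-shape regulators 6 of 33 were higher (the miR164 entries and miR319c) and 4 lower. Among auxin regulators 1 of 16 was higher and 3 lower. In the families that trigger secondary siRNAs 0 of 14 entries were higher and 2 lower. These 2 were the 3p arms miR173-3p and miR393a-3p, while miR173-5p and miR393a-5p were not called. The call of miR173-3p did not hold under all 5 scalings. In the families that regulate the miRNA machinery 2 of 11 entries were higher and 2 lower. The higher ones were copies of 1 sequence, miR168a-5p and miR168b-5p. The lower ones were also copies of 1 sequence, miR162a-5p and miR162b-5p, and miR162a-3p and miR162b-3p were not called. Neither miR162a-5p nor miR162b-5p was called under all 5 scalings. None of the 6 tested phosphate, 5 sulphate or 3 NLR entries was called by edgeR. Among young non-conserved families 1 of 51 was higher and 12 were lower (median -0.48), and among late entries 2 of 52 were higher and 8 lower (median -0.09). The young families include miR863 of the chromosome 4 interval, whose 3p arm had the lowest value of that list (log2 -1.89). The transposon-related list had 2 of 9 higher, miR845a and miR405a, and none lower, and its 9 entries hold only 5 distinct sequences.

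Among the most abundant miRNAs of leaves, miR159b-3p was lower and miR157c-5p and miR157a-5p higher, as given above, and others were not called with TMM. miR158a-3p, the most abundant entry, was at 148400 ± 8536 CPM in WT and 125600 ± 26880 CPM in chr2 (SD, n = 3 each, log2 -0.24), and miR166a-3p, a repressor of HD-ZIP III genes that set leaf polarity, was at 68240 ± 3948 and 63640 ± 14180 CPM (log2 -0.10). Both were called lower with reference scaling (log2 -0.63 and -0.51). miR396b-5p, miR161-2 and miR390a-5p had log2 changes of -0.36, -0.29 and -0.44 and were not called.

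Features of the hairpins are given as a description over 209 distinct mature sequences, of which 10.5% were higher and 20.1% lower. Of the sequences from hairpins longer than 186 nt, 29.0% were lower, against 15.1% of those from hairpins of at most 123 nt. The long hairpins include MIR5026, MIR850, MIR863 and MIR841a of the chromosome 4 interval, whose entries were all lower. On chromosome 4, 42.9% of 28 sequences were lower, and the interval described above gave most of these. By folding energy per base, 24.3% of the most stable and 17.4% of the least stable tertile were lower. Sequences that begin with G were called more often in either direction (27.3% higher and 31.8% lower of 22) than those that begin with U (8.62% and 19.0% of 116). The most abundant tertile had equal shares of higher and lower sequences (18.6% each), against 10.1% and 29% in the middle and 2.86% and 12.9% in the least abundant.

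The se-2 libraries were compared with the same WT libraries, so the values of the 2 mutants share their controls and are only set side by side. Summed counts of distinct profiles were 126529, 164571 and 190872 in the se-2 libraries, against 1233261 to 1538367 in WT. The se-2 values are thus relative to a much smaller pool of miRNA counts and do not show whether a miRNA accumulated in se-2. miR845a was higher in both (log2 4.16 in chr2 and 3.70 in se-2), and so was miR8175 (1.51 and 3.16). miR156d-3p was lower in both (-5.14 and -1.54). In the interval of chromosome 4, miR5026 had log2 values of -1.89 in chr2 and 2.12 in se-2, miR850 of -1.74 and 2.92, and miR863-3p of -1.89 and 1.67, whereas miR3932b-5p had -1.49 and -1.67. At the same end miR5996 had -1.51 and 0.67, miR841a-5p -0.97 and 0.90, and miR841a-3p -1.33 and 0.38 (not called in se-2, edgeR adjusted p = 0.12). miR822-5p had -1.77 and 0.69. miR157c-3p had 0.89 in chr2 and -3.49 in se-2, and miR164a 1.01 and -2.48.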

How the data were processed

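Small RNA of 19 to 24 nt was gel-purified from leaf total RNA and sequenced on Illumina, per the labels' protocols. Bowtie 1.1.2 and the TAIR10 build were used, per the submitters' processing notes; what counted the reads, with which annotation, and how reads with several matches were treated, is not given in the sources used here. Raw counts, whole numbers without normalization for each mature miRNA, are what the authors deposited.

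Entry names were matched to RefSeq mature miRNAs of TAIR10.1 (413 as written, 14 in a dotted form), and groups were taken from sample titles. Of the 381 entries with counts, 119 share a mature sequence with another, so copies are not taken as independent. The summed miRNA counts (per library 599268 to 1538367) are not sequencing depth, and entries with few counts are the least precise. Identical profiles over 9 libraries were kept once, low entries were removed by filterByExpr, and all 9 libraries were fitted with edgeR 4.0.16 (robust quasi-likelihood, TMM; limma 3.58.1, R 4.3.3) with genotype as the only term and Benjamini-Hochberg adjustment at 0.05. Family sums were fitted likewise. Arm ratios were fitted with a coefficient per library, arm and arm by genotype. Summed counts were compared by an exact permutation test. DESeq2 1.42.0 and limma-voom served as alternatives. Reference scaling used the summed counts of late annotated and questioned early entries as library size. Hairpins were folded with RNAfold 2.7.2. Libraries of the same genotype were not copies of each other (chi-square of their counts 20 to 106 for each degree of freedom). Same-numbered WT and chr2 libraries did not deviate together (r of -0.21, -0.15 and -0.12), so numbers were not taken as pairs. Scripts were tested on simulated counts. Named entries were the 12 largest changes in each direction whose mean reached 10 CPM without overlap of groups, their partner arms, called families and arm ratios, the most abundant entries, neighbours within 10 kb and up to 3 members of each list; miR156, miR169 and miR171 entries and smaller calls beyond this rule were chosen after their values were seen. The members and lists were chosen with earlier results of these data known.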

Additional observations from a re-analysis of the deposited data

How the results depend on the processing

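Scaling, filters and the libraries in the fit moved the counts of calls. The entries called higher, 28 with TMM, were 46 with DESeq2 size factors, 12 with reference scaling, 48 with reference scaling without miR8175 and 47 with a filter of at least 10 CPM in 3 libraries. The entries called lower, 53 with TMM, were 35 with total counts, 108 with reference scaling, 27 with reference scaling without miR8175, 31 with the DESeq2 test, 35 with the 10 CPM filter, 34 with only the 6 WT and chr2 libraries and 29 with a single entry per mature sequence. Higher entries were 37 with the DESeq2 test, 42 with the 6 libraries and 35 with a single entry per mature sequence. In each of these alternatives they outnumbered the lower entries, unlike with TMM. Leaving out a replicate gave 21 to 42 higher and 29 to 44 lower entries; the lower calls dropped to 30 when WT replicate 1 was left out, to 33 for chr2 replicate 1 and to 29 for chr2 replicate 3. Families called higher, 11 with TMM, were 20 with DESeq2 size factors, 6 with reference scaling, 19 with reference scaling without miR8175, 18 without a filter, 18 with the 10 CPM filter and 19 with the 6 libraries. Families called lower, also 11, were 17 with total counts and 58 with reference scaling, and leaving out a replicate gave 12 to 16 higher and 9 to 14 lower families. Changed arm ratios, 6, were 2 among hairpins with unique arms and 3 to 9 with a replicate left out (3 without WT replicate 2 or 3). The ratio of summed miRNA counts, chr2 over WT (0.553), was 0.516 to 0.61 with a replicate left out. The cause of these moves was not tested, beyond the smaller number of entries or libraries that the alternative leaves. No called value changed its sign under any alternative.

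Replicate numbers did not pair the libraries, and with the replicate number as a block there were 26 higher and 47 lower entries, 12 higher and 10 lower families and 5 changed arm ratios. Low counts limit miR845a, miR8183, miR869, miR829-3p-1 and miR167c-3p in particular. How counts of identical mature sequences were split between hairpins is not known, and any change shared by most miRNAs cannot be read from miRNA counts alone.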
